A study of Mus musculus with 6 samples.

Results

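The transcriptomes of immortalized murine embryonic fibroblasts (MEF) lacking either TIA1 or TIAR were set, as one pooled knockout group, against those of wild-type (WT) MEF. MEF are connective tissue cells grown from mouse embryos, here lines that divide without limit. Total RNA of each sample was labelled with Cy3 and hybridised to a 1-colour Agilent SurePrint G3 mouse array, with 2 independent samples per line. The pooled comparison used all 6 arrays of the series: 2 of TIA1 KO MEF and 2 of TIAR KO MEF as the knockout group, and 2 of WT MEF. The WT line was labelled with the strain W4, the TIA1 KO line with BALB/c and the TIAR KO line with C57BL/6. Each genotype was therefore 1 line of its own strain, so that loss of a TIA protein, strain and line cannot be told apart, and what both knockout lines share against WT includes whatever sets the WT line apart from other lines.

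TIA1 and TIAR (encoded by Tia1 and Tial1) are related RNA-binding proteins built around RNA recognition motifs. They are known to bind uridine-rich and AU-rich stretches of RNA, to guide splice site choice in the nucleus, and to hold back translation of bound mRNAs in the cytoplasm, where they gather in stress granules. Because the proteins overlap in what they bind, the pooled comparison asks which mRNAs stood on the same side of WT in both knockout lines.

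The values were normalised log2 intensities, 1 per probe and array, for 55681 probes. By the scanner software's own test, 23569 and 26295 probes were well above background in WT, 24796 and 26011 in TIAR KO, and 16021 and 19996 in TIA1 KO. Before correction, the median spot intensity was 152 and 140 in WT, 136 and 119 in TIAR KO, and 458 and 218 in TIA1 KO. Similar normalised values could therefore pass on 1 array and fail on another. Actg2 passed at 7.77 in WT and failed at 7.94 in TIA1 KO. The first TIA1 KO array stood apart, with a mean correlation of 0.926 to the other arrays over all probes, whereas the other 5 arrays had mean correlations between 0.955 and 0.959. The SD between the arrays of a line, over all probes, was 0.28 log2 for WT, 0.32 for TIAR KO and 0.57 for TIA1 KO. All arrays lay on 1 slide and came from 1 scan, with WT and TIAR KO in slide row 1 and TIA1 KO in row 2, so that effects of the row and of TIA1 loss cannot be told apart. By the study's methods the samples of a line were independent experiments, and with 1 line per genotype p-values measure the spread between samples of these lines, not between lines.

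The targeted genes were read first. The brightest Tia1 probe (mm9 chr6:86383073-86383132) gave 10.57 and 8.71 on the WT arrays, 9.75 and 9.77 in TIAR KO MEF, and 7.52 and 8.38 in TIA1 KO MEF. Both TIA1 KO arrays lay below both WT arrays (mean change -1.69 log2), while the TIAR KO arrays lay within the WT range. Of the other Tia1 probes, 1 had a TIA1 KO change of -1.86 log2 and 1 of 1.10 log2. For Tial1 (mm9 chr7:135585977-135586036), WT gave 13.71 and 13.29, TIA1 KO 14.20 and 13.77, and TIAR KO 9.80 and 11.78. The mean change in TIAR KO was -2.71 log2, with both TIAR KO arrays below all 4 other arrays. In the pooled comparison neither gene passed the test for a difference of the knockouts from WT (Tia1 -0.79 ± 0.56 log2, limma adjusted p = 0.456; Tial1 -1.11 ± 0.56, adjusted p = 0.323, SE in both). Which part of either gene was deleted is not given in the sources used here, so the probes check the labels only as far as these values go. Gapdh, a glycolytic enzyme often used as a reference, had a pooled change of 0.01 ± 0.14 log2 by its brightest probe, placed on chromosome 7. The brightest probe at its chromosome 6 locus gave -0.13. At this size the sign changed with the scaling. For the brightest probe it ran from -0.78 log2 (common median) to 0.03 (scanner values with normexp, loess and quantile).

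A probe was called when its adjusted p in limma was below 0.05 and it differed more than 2-fold. In the pooled comparison 2084 probes were called (3.74%), 1247 of them higher (2.24%) and 837 lower (1.5%) in the knockouts. An unadjusted p under 0.05 was found for 11996 of the 55681 probes, the background for the unadjusted counts of the lists below. All 4 knockout arrays lay above both WT arrays for 5371 probes (9.65%), and below both for 9296 (16.7%). Which of these counts was larger depended on the scaling: they were 6745 and 6190 when the arrays were scaled to their 75th percentile, and 3215 and 14616 when scaled to a common median. Of the called probes, 950 of the higher and 776 of the lower were separated from WT in this way. In the remaining 358 called probes the arrays overlapped, and in all 358 the difference between the knockouts was called as well. Both knockouts were set against the same WT arrays, so an error in the WT arrays would move both alike. On the higher side, 304 of the 950 probes were not well above background on either WT array, and on the lower side 167 of the 776 were not on any knockout array.

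**Figure D1:**
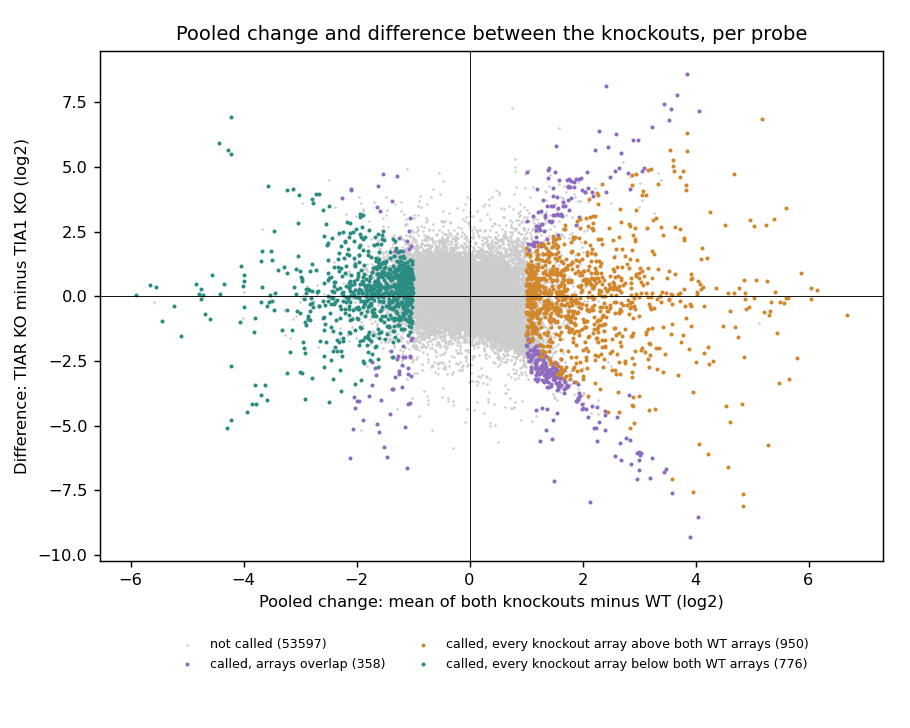
Each point is 1 of the 55681 probes, with the pooled change from WT on the x axis and the difference between TIAR KO and TIA1 KO on the y axis, both in log2. The 950 called probes with every knockout array above WT and the 776 with every knockout array below WT spread to both sides of a difference of 0, and the 358 called probes whose arrays overlap lie away from a difference of 0.

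The counts changed with single arrays of each line. When an array was left out, its line kept 1 array, which was taken to vary like the arrays of the other lines. Without WT replicate 1 there were 207 higher and 66 lower calls, and without WT replicate 2 there were 229 and 77, while leaving out the first TIA1 KO array gave 2112 and 1180 and leaving out the second gave 3808 and 2630. Without TIAR KO replicate 1 there were 552 and 283 calls, and without TIAR KO replicate 2 there were 595 and 247. Within slide row 1, which leaves only TIAR KO against WT, 1843 probes were higher and 1290 lower, and 126 of the 2084 pooled calls had the opposite sign there. The split of calls into higher and lower also moved with the scaling, from 59.8% higher in the deposited values to 78.7% when the arrays were scaled to their 75th percentile and 11% when they were scaled to a common median. The median pooled change of all probes was -0.05 log2 in the deposited values, 0.98 with the 75th percentile and -0.32 with the common median.

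The genes whose smaller knockout change was largest were led by the collagens of basement membrane and loose connective tissue. Col4a1, which encodes an alpha chain of the collagen IV network (probe at mm9 chr8:11199009-11199068), gave 7.859 and 7.785 on the WT arrays, 14.843 and 14.879 in TIA1 KO and 14.084 and 14.216 in TIAR KO. This is a 103-fold rise (6.68 ± 0.13 log2, SE, adjusted p = 0.000533), with the 4 knockout arrays far above both WT arrays. Col3a1, a fibrillar collagen of soft tissues, gave 9.84 and 9.57 in WT, 15.71 and 15.76 in TIA1 KO and 15.22 and 16.71 in TIAR KO, a 70.8-fold rise (adjusted p = 0.00279). All 4 knockout arrays lay above both WT arrays, and the TIAR KO arrays, which lay on either side of those of TIA1 KO, differed from each other by more than the arrays of the other lines.

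The other genes of this group were of mixed kinds. Arhgdib, a GDP dissociation inhibitor, rose 65.8-fold by its brightest probe, from 8.77 and 9.03 in WT to between 14.73 and 15.14 on the 4 knockout arrays, and its other probe rose by 2.68 log2. Tmem119, a membrane protein of bone-forming cells and microglia, rose 58.3-fold. Snhg18, a long non-coding RNA that hosts a small nucleolar RNA, was at least 42.6-fold higher, and its WT arrays (6.71 and 6.66) were not well above background. Cers4, a ceramide synthase, rose 45.2-fold, Serpinf1, the secreted pigment epithelium-derived factor, rose 39.7-fold, and the homeobox gene Irx1 was at least 36.9-fold higher. Adamts14, which trims procollagens, rose 31.0-fold by its brightest probe, and its other probe did not pass the test (0.28 log2). The matricellular protein gene Ccn5 and the surface glycoprotein gene Cd24a each rose 29.4-fold, and a transcript known only by the code TC1700876 rose 38.6-fold. For none of these 12 genes did the difference between the knockouts pass both thresholds, against 5.87% of all probes. The ranking by the smaller knockout change favours genes on which the knockouts agree, so this count is no separate result.

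On the lower side, many of the leading genes were well above background in WT only. Lce1i, a late cornified envelope gene of the epidermal differentiation complex (mm9 chr3:92581159-92581218), gave 12.94 and 12.31 in WT and between 6.64 and 6.86 on the knockout arrays, and was at least 58.9-fold lower (adjusted p = 0.00071). Lce1g and Lce1c were at least 26.6-fold and 27.7-fold lower, while the other probe of Lce1c gave -0.38 log2 and did not pass the test. The Lce genes are near-identical neighbours, so signal may be shared between their probes. Of 21 probes for 18 Lce genes, 7 were called lower (1.5% of all probes) and 0 higher (2.24%), and 6 of the genes had a probe called lower. This family was counted after its values were seen.

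Genes of other roles lay beside them. Pianp, a type I membrane protein, gave 12.58 and 12.62 in WT and 6.63 to 7.25 in the knockouts, and was at least 50.4-fold lower. H2-Q8, a non-classical class I histocompatibility gene, was at least 47.1-fold lower, and Rnf39, a RING finger gene, at least 37.7-fold lower; both lie on chromosome 17, in and beside the histocompatibility region (mm9 35532392 and 37084871). Ccl5, a chemokine that draws T cells, fell 43.6-fold, from 14.75 and 13.54 in WT to 8.74 and 9.62 in TIA1 KO and 8.41 and 8.03 in TIAR KO, and stayed well above background on every array. Hand2, a helix-loop-helix factor of heart and limb, and the transcript AV026068, 17.3 kb from it on chromosome 8, were at least 27.1-fold and 26.6-fold lower. Reep1, which shapes the endoplasmic reticulum, and Plxdc2, a plexin domain protein, were at least 25.7-fold and 21.3-fold lower. Nuf2, a kinetochore subunit, was at least 25.5-fold lower by 1 probe, but its brighter probe gave -0.73 log2 and did not pass the test.

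**Figure D2:**
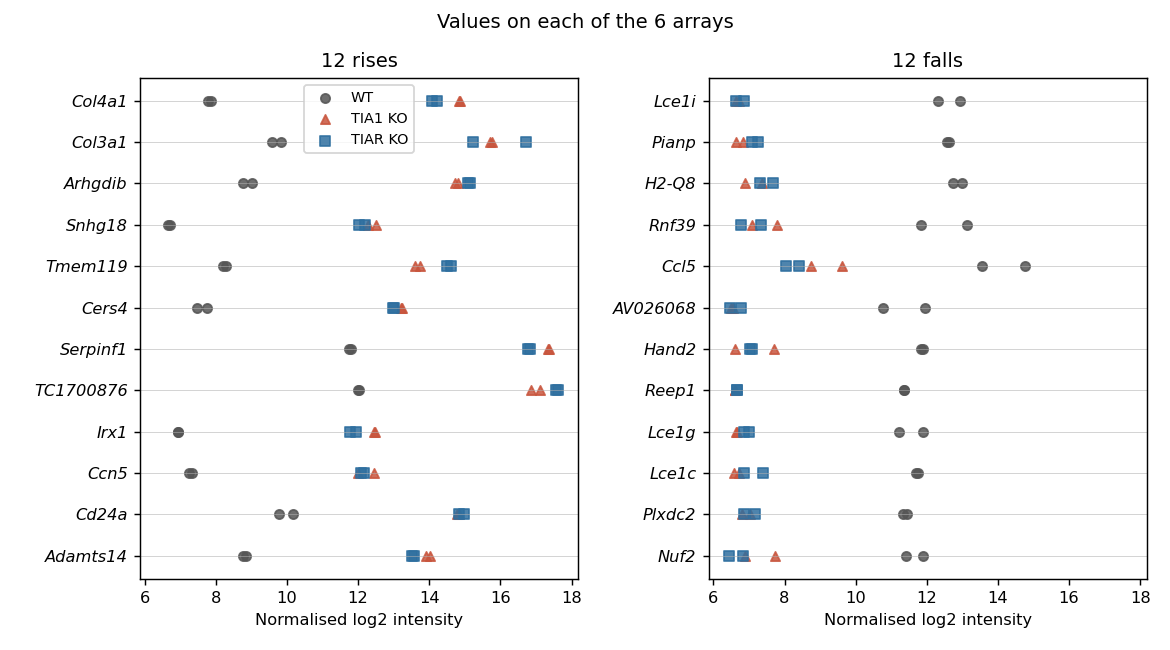
Normalised log2 intensity (x axis) of the 12 genes above and the 12 genes below WT with the largest smaller knockout change, with 1 symbol per array and WT, TIA1 KO and TIAR KO as circles, triangles and squares. In every row the 4 knockout arrays lie apart from the 2 WT arrays, as the choice of genes required. In 11 of the 12 falls every knockout array lies under 8 log2.

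Among 22 collagen genes, 13 were called higher and 1 lower, with a median of 1.98 log2, against 3.2% called higher, 1.89% called lower and a median of -0.04 log2 over the 30409 genes read by 1 probe each, the background for every list given here. All 4 knockout arrays lay above WT for 16 of them (11.2% of all genes). Beside Col4a1 and Col3a1, Col4a2 rose 43.7-fold and Col6a3, a chain of the beaded collagen VI filaments, was at least 38.8-fold higher. Col6a3 changed by 8.15 log2 in TIA1 KO and by 2.405 in TIAR KO. The collagen I chains, the main fibril of skin and bone, were also called (Col1a1 4.57-fold, Col1a2 5.21-fold), whereas Col18a1, whose end fragment is endostatin, fell 5.64-fold, more in TIA1 KO (-4.25 log2) than in TIAR KO (-0.74). Without WT replicate 1 or 2, 7 collagen genes were called higher, and without the first TIA1 KO array 16 were called higher. The collagen I genes and Col18a1 were picked after their values were seen, like all list members named here beyond the 4 largest calls of a list.

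Col4a1 and Col4a2 are neighbours transcribed in opposite directions, and their RefSeq promoter windows (250 bases before to 50 after the start site, build GRCm38.p6) share 78 bases, chr8:11312777-11312854. The start sites, 11312826 for Col4a1 (minus strand) and 11312805 for Col4a2 (plus strand), lie 21 bases apart within this stretch. By these sites the first transcribed bases of the genes overlap there. The stretch is shown because both genes rose together. It has 73.1% G and C and reads, on the plus strand:
Col4a1 and Col4a2: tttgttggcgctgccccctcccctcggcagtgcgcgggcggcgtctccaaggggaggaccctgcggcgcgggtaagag

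The other matrix lists also held more called higher than lower. Of 18 elastic fibre genes, which build the fibrillin and elastin scaffold, 13 were called higher and 1 lower (median 1.70 log2). Efemp1 (fibulin 3) was at least 26.2-fold higher, Fbln5 rose 18.9-fold by its brightest probe (its other probe, at background, was not called), Mfap5 rose 18.6-fold and Fbln2 rose 18.6-fold. Efemp1 and Mfap5 changed by 8.65 and 7.27 log2 in TIA1 KO and by 1.03 and 1.165 in TIAR KO. Fbn2, the fibrillin of embryonic tissue, was at least 7.99-fold higher, with 6.88 and 7.16 in WT, 9.28 and 9.85 in TIA1 KO and 10.46 and 10.48 in TIAR KO. In contrast, Ltbp2, a latent TGF-beta binding protein, fell 7.07-fold. The difference between the knockouts was called for 8 members, against 7.35% of all genes, and all 8 were higher in TIA1 KO. Of 12 small leucine-rich proteoglycans, which coat collagen fibrils, 5 were called higher: Dcn (decorin) 36.1-fold, Ogn 9.35-fold, Fmod 8.31-fold, Bgn (biglycan) 6.02-fold and Omd 3.83-fold. Dcn was carried mainly by TIAR KO (8.61 log2, against 1.75 in TIA1 KO) and for Fmod, 1 TIA1 KO array (7.28) lay inside the WT range of 7.27 to 7.60.

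Among 28 matrix proteases and inhibitors, 9 were called higher and 1 lower (median 0.91 log2). Adamts2, which removes the amino-terminal propeptide of collagens, was at least 48.4-fold higher, Mmp23 at least 41.9-fold higher and Adamts5, an aggrecanase, rose 5.55-fold by its brightest probe (0.48 log2 and not called by the other). Mmp2, gelatinase A, was the exception: it was at least 16.1-fold lower, with 11.83 and 11.91 in WT, 7.25 and 8.07 in TIA1 KO and 8.00 and 8.13 in TIAR KO. Of 20 integrins, Itgb3 (14.7-fold by its brightest probe, 0.76 log2 and not called by the other) and Itgb5 (5.10-fold) rose, and Itgb7 fell 3.15-fold with no separation of TIA1 KO from WT. When WT replicate 1 was left out, 5 elastic fibre genes, 1 proteoglycan gene, 2 proteases and 1 integrin were called higher, and without the first TIA1 KO array 14, 7, 12 and 4 were.

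**Figure D3:**
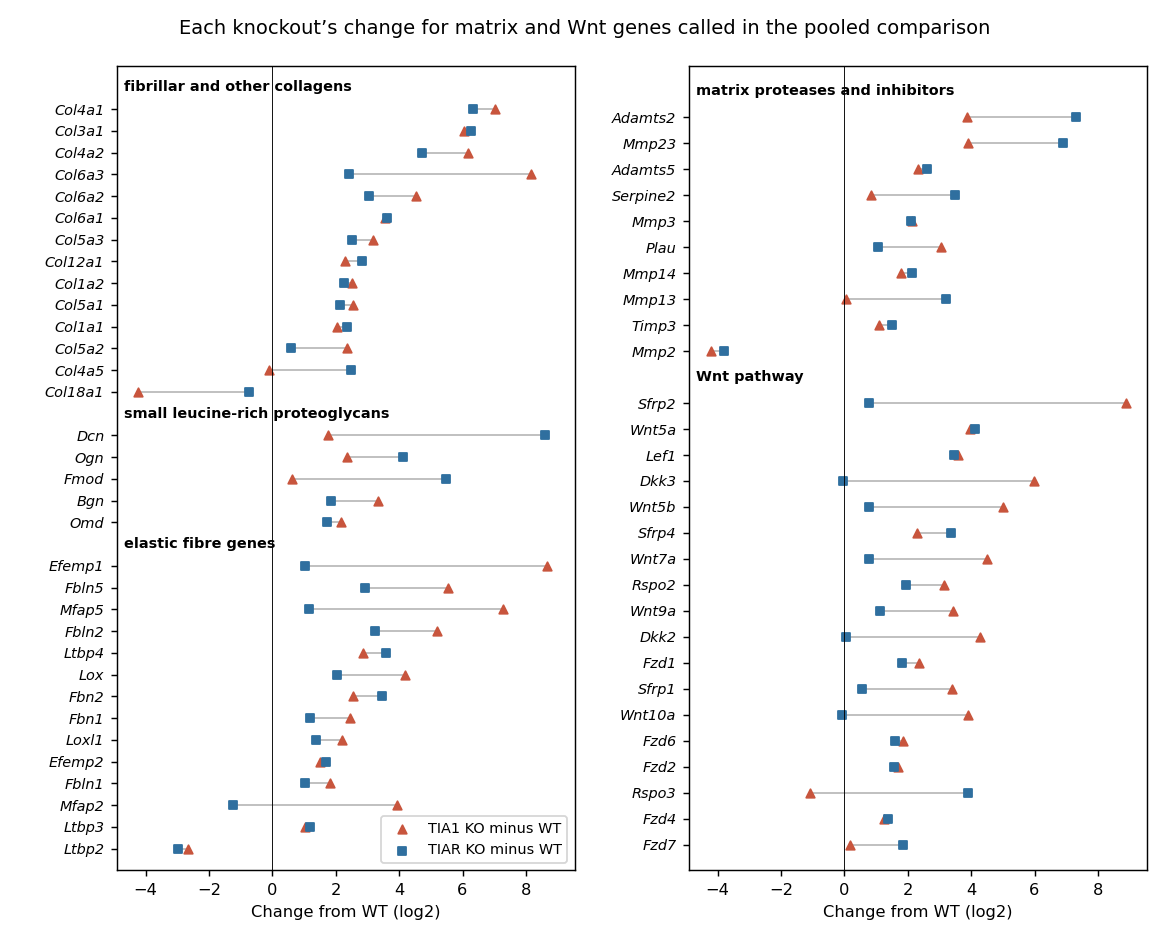
Change from WT in log2 (x axis) of TIA1 KO (triangles) and TIAR KO (squares) for each gene of 5 lists that was called in the pooled comparison. Col4a1, Col3a1, Wnt5a and Lef1 have both symbols close together, while Dcn, Efemp1 and Sfrp2 have them more than 6 log2 apart.

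Secreted signals and their receptors followed. Wnt ligands bind frizzled receptors and, in the canonical branch, let beta-catenin act with LEF and TCF factors. SFRP proteins and several DKK proteins can hold the pathway back. Of 38 Wnt pathway genes, 18 were called higher and 0 lower by limma (21 and 0 at an unadjusted p under 0.05; median 1.06 log2). The ligand gene Wnt5a was at least 16-fold higher (WT 7.18 and 6.90, TIA1 KO 11.10 and 10.88, TIAR KO 11.58 and 10.73), and the transcription factor gene Lef1 rose 11.5-fold. For neither did the difference between the knockouts pass the test (adjusted p = 0.64 for Lef1). For the SFRP and DKK family genes Sfrp2 and Dkk3 it did. Sfrp2 was at least 26.6-fold higher, with 8.88 log2 in TIA1 KO and 0.79 in TIAR KO. Dkk3 was at least 7.77-fold higher, with 5.97 in TIA1 KO and -0.06 in TIAR KO. Sfrp1 was called higher, with changes of 3.39 log2 in TIA1 KO and 0.55 in TIAR KO; neither WT nor TIAR KO was well above background on any array, so no fold is given. Without WT replicate 1 or 2, 3 Wnt genes were called, and without the first TIA1 KO array 21.

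Of 35 TGF-beta and BMP pathway genes, 6 were called higher and 1 lower, against 3.2% and 1.89% of all genes (median 0.16 log2). Inhbb, an activin subunit, was at least 44.3-fold higher, Tgfbi, a matrix protein induced by TGF-beta, rose 37.9-fold, and the ligand genes Tgfb2 and Tgfb3 rose 16.2-fold and 8.74-fold. Bmpr2, the type II BMP receptor, fell 7.97-fold. Of 48 genes of the semaphorin, ephrin and Slit guidance families, 12 were called higher and 2 lower (median 0.25 log2). Slit3 was at least 26.2-fold higher (5.14 log2 in TIA1 KO and 4.66 in TIAR KO), and Sema3b and Efnb1 rose 6.98-fold and 5.91-fold. Sema5a was at least 16.7-fold higher, with 6.905 log2 in TIA1 KO and 1.215 in TIAR KO. Sema4a fell 4.27-fold and Sema4d was at least 4.63-fold lower. Leaving out WT replicate 1 left 4 TGF-beta and BMP genes and 5 guidance genes called higher. Among 41 EGF ligand and MAPK response genes, against the same 3.2% and 1.89%, 1 was called higher, Spry1 (7.58-fold), and 4 lower: Dusp9 (at least 7.53-fold), Egr1 (3.78-fold, -3.54 log2 in TIAR KO and -0.30 in TIA1 KO), Etv4 (3.24-fold) and Etv5 (2.20-fold). Dusp9 changed by -0.935 log2 in TIA1 KO and by -4.89 in TIAR KO. The EGF ligand gene Ereg did not pass the test (-0.09 log2), with a TIA1 KO change of 2.35 and a TIAR KO change of -2.52 log2. Its TIA1 KO arrays lay far apart, at 11.83 and 15.36. Leaving out the first of them turned the pooled sign (0.80 log2). Leaving out the second gave -0.97 log2, as did leaving out outlier spots.

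The markers of cell identity differed between the lines as well. In bulk RNA, fewer cells of a type and less RNA per cell cannot be told apart. Of 12 fibroblast genes, 6 were called higher and 0 lower by limma (8 and 1 at an unadjusted p under 0.05; median 0.80 log2), among them Pdgfra (at least 17.3-fold), Pdgfrb (10.6-fold) and Fn1, fibronectin (5.47-fold). Thy1, a surface marker of many fibroblasts, gave 7.03 and 7.45 in WT and 6.87 and 7.18 in TIA1 KO but 14.83 and 14.79 in TIAR KO, so that the TIA1 KO and WT arrays overlapped under a pooled call. Fap and Tcf21 were not above background on any array. Of 8 smooth muscle markers, 4 were called higher. Acta2, the smooth muscle actin that also marks myofibroblasts, rose 33.5-fold, from 12.816 and 13.109 in WT to 17.689 and 17.732 in TIA1 KO and 18.378 and 18.311 in TIAR KO, and the actin-bundling gene Tagln rose 8.43-fold. Cnn1 (3.21-fold) and Actg2, which was not well above background in TIA1 KO, changed by 3.07 and 5.04 log2 in TIAR KO and by 0.29 and -0.61 in TIA1 KO. The summed intensity of the list was 18400 and 23400 in WT, 289000 and 301000 in TIA1 KO and 476000 and 444000 in TIAR KO, with Acta2 brightest, whereas Myh11, Lmod1 and Myocd, which define mature smooth muscle, were not above background on any array.

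Of 5 mesothelial markers, Upk3b, Wt1 and Lrrn4 were called higher, with changes of 7.16, 4.25 and 2.60 log2 in TIAR KO and of -0.28, 0.26 and 0.35 in TIA1 KO, each with neither WT nor TIA1 KO well above background on any array. The brightest marker, Msln, had a TIA1 KO change of 1.67 and a TIAR KO change of -1.59 log2. The summed intensity of that list was 93200 and 62000 in WT, 261000 and 223000 in TIA1 KO and 46000 and 43600 in TIAR KO. Of 6 adipocyte markers, Lpl and Pparg (7.63-fold) were called higher. Lpl changed by 8.14 log2 in TIAR KO and -0.46 in TIA1 KO by its brightest probe. Its other probe gave 6.21 and 1.355. The adipocyte sums were 2330 and 2740 in WT, 8080 and 8800 in TIA1 KO and 46300 and 44600 in TIAR KO. On the TIAR KO arrays Lpl gave 15.35 and 15.29 log2, and on the TIA1 KO arrays Pparg gave 12.562 and 12.566. Adipoq was not above background on any array. Of 6 neural markers, Gap43 was called higher (6.17 log2 in TIA1 KO, where alone it was well above background, and -0.17 in TIAR KO). For 4 of the 6 the difference between the knockouts was called, against 7.35% of all genes. The neural sums were 30400 and 24500 in WT, 50000 and 51100 in TIA1 KO and 3950 and 2380 in TIAR KO, with Nes brightest and Stmn2 not above background on any array. Of 12 epithelial markers, Cdh1 was called higher (1.57 log2 in TIAR KO and 0.66 in TIA1 KO, well above background in TIAR KO alone). In this list 7 changes were positive and 5 negative, with 4 higher and 3 lower at an unadjusted p under 0.05 (limma). The epithelial sums were 7100 and 7670 in WT, 12300 and 13100 in TIA1 KO and 10400 and 9790 in TIAR KO, with Krt19 brightest. Of 10 macrophage and blood cell, 8 endothelial and 6 pluripotent cell markers, 0 were called by limma. An unadjusted p under 0.05 was found for 3, 1 and 1 of them, against 11996 of all 55681 probes. The macrophage and blood cell sums were 13000 and 12200 in WT, 24800 and 21000 in TIA1 KO and 11500 and 11500 in TIAR KO, with Itgam brightest. For 4 of these 10 markers the difference between the knockouts was called, against 7.35% of all genes. Ptprc, Adgre1 and Lyz2, Cdh5, Cldn5, Emcn and Tie1, and Dppa4 and Zfp42 were not above background on any array. When WT replicate 1 was left out, 4 fibroblast, 2 smooth muscle, 0 mesothelial and 0 epithelial markers were called higher. The part of other cell types in any list's change was not tested.

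Interferon-induced genes were the list with the most genes called lower. Interferons are secreted on viral infection and act through an element made of spaced GAAA repeats before the start sites of antiviral genes. Of 34 such genes, 0 were called higher and 19 lower by limma (2 and 24 at an unadjusted p under 0.05; median -1.26 log2), against 3.2% and 1.89% of all genes, and 21 had all 4 knockout arrays below both WT arrays (17% of all genes). Oas1a, an RNA-activated 2′-5′ oligoadenylate synthetase, gave 12.24 and 13.01 in WT, 9.64 and 9.82 in TIA1 KO and 7.04 and 7.08 in TIAR KO, and was at least 18.8-fold lower (adjusted p = 0.00181). Isg15, a ubiquitin-like modifier, fell by 3.17 on the log2 scale, from 14.17 and 14.03 in WT to 12.10 and 11.90 in TIA1 KO and 9.60 and 10.12 in TIAR KO. By the other probes of Oas1a and Isg15, which were also called lower, the difference between the knockouts was not called (limma adjusted p = 0.393 and 0.323). Oasl1, a relative of the synthetases, was at least 7.52-fold lower, Ifit1, which holds viral RNA, was at least 7.24-fold lower, and Bst2, a tether of budding virus, fell 4.36-fold. Over the list the median change was -1.485 log2 in TIA1 KO and -1.31 in TIAR KO. The difference between the knockouts was called for 5 genes, against 7.35% of all genes, 2 of them higher and 3 lower in TIAR KO. Of the 34 genes, 2 were called lower without WT replicate 1; without WT replicate 2, 1 was, without the first TIA1 KO array 20 were, and with scaling to the 75th percentile 7.

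Windows of 300 bases around RefSeq start sites (GRCm38.p6) were searched on both strands for a pair of GAAA repeats with any 2 bases between them, counting overlapping matches. They stood in 10 of the 15 called interferon-induced genes that had a window (66.7%) and in 7 of the 10 uncalled ones (70%), against 3.99% of 27025 genes. Of 9 antigen presentation genes called lower, 6 had a window, and 1 of these held the letters (16.7%). The same search found a match for Cxcl10 but none for Ccl5, Psmb8, Psmb9, Tap1 or Nlrc5, some of which may have no window. Of the 4 interferon-induced genes with the largest falls, Oasl1 has a window without these letters. The matches of the other 3, and of Bst2 and the chemokine gene Cxcl10, picked after their values were seen, are shown on the strand of the gene, with the matched letters in capitals; where the capitals read TTTC, the match is on the opposite strand. They come from chr4:156200865-156200906 and chr5:120907520-120907555 (both minus strand), chr19:34640775-34640823 (plus strand), chr8:71537577-71537612 and chr5:92349083-92349112 (both minus strand).
Isg15: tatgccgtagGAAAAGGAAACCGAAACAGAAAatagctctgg
Oas1a: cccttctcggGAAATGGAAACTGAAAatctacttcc
Ifit1: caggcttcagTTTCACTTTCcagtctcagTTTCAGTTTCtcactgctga
Bst2: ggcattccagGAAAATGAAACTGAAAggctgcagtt
Cxcl10: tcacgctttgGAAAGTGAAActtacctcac
In these windows the first matched base lies 78 bases before the start site in Isg15, 20 in Oas1a, 104 in Ifit1, 130 in Bst2 and 213 in Cxcl10.

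**Figure D4:**
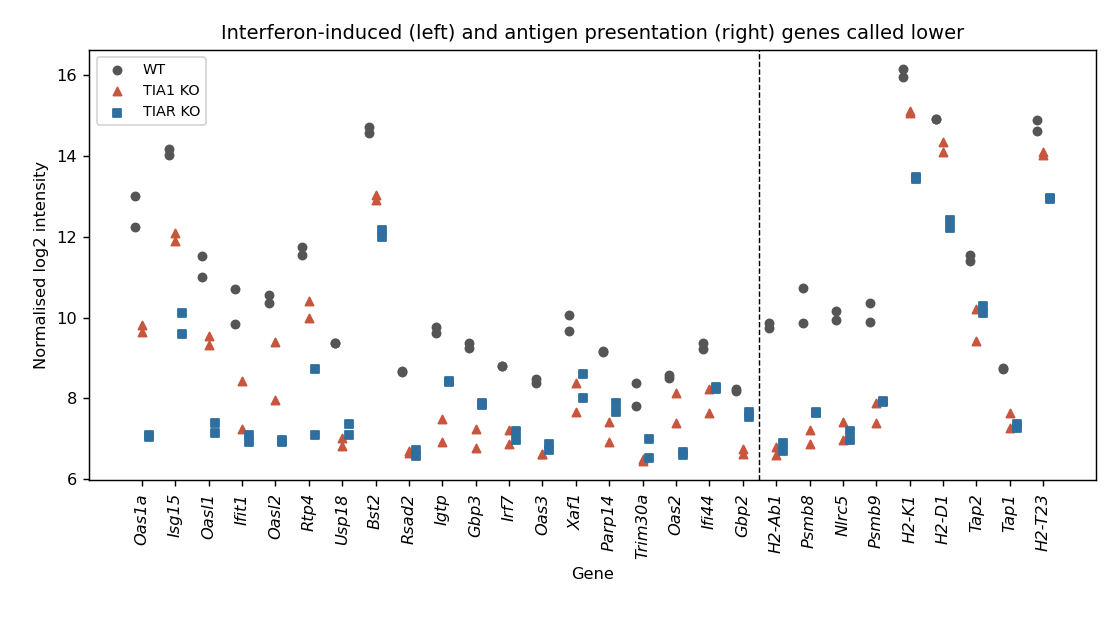
Normalised log2 intensity (y axis) on each array of the 19 interferon-induced genes (left of the dashed line) and the 9 antigen presentation genes (right) that were called lower, with circles for WT, triangles for TIA1 KO and squares for TIAR KO. In all 28 genes both WT arrays lie above the 4 knockout arrays, and in Oas1a, Isg15 and Oasl1 the TIAR KO arrays lie below those of TIA1 KO.

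Of 21 antigen presentation genes, which load and present peptides on the cell surface, 9 were called lower and 0 higher by limma (12 and 2 at an unadjusted p under 0.05; median -0.79 log2). H2-Ab1, a class II chain, was at least 8.37-fold lower, the immunoproteasome subunits Psmb8 and Psmb9 were at least 7.77-fold and 5.09-fold lower (a dimmer Psmb9 probe, at background, was not called), and Nlrc5, the transactivator of class I genes, was at least 7.61-fold lower. Over these 4 genes the lowest WT value was 9.75, in H2-Ab1, and the highest knockout value 7.93, in Psmb9. With WT replicate 1 left out, 1 gene of the list was called lower, and without WT replicate 2, 2 were. Probes for class I genes can share signal between near-identical family members, and these genes differ in sequence between mouse strains.

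Of 23 chemokines, 5 were called lower and 3 higher (median 0.17 log2). With Ccl5, Cxcl10 (7.12-fold by its brightest probe, -1.14 log2 and not called by the other), Ccl2 (4.60-fold) and Cxcl1 (3.71-fold) fell and had all knockout arrays below WT, while Cxcl5 (2.54-fold) had changes of -3.15 log2 in TIAR KO and 0.45 in TIA1 KO. Cxcl12, a homeostatic chemokine that attracts blood stem cells, rose 4.18-fold by its brightest probe but was not called by its other one (0.47 log2, limma adjusted p = 0.184), and Ccl7 (3.20-fold) and Ccl9 (3.18-fold) rose by 2.70 and 2.98 log2 in TIAR KO against 0.66 and 0.36 in TIA1 KO. Of 20 complement genes, C3, the central component, fell 9.45-fold, from 12.66 and 12.71 in WT to between 8.71 and 9.92. With WT replicate 1 left out, limma called 0 chemokine and 0 complement genes.

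Most cell division genes had lower values in the knockouts without passing the thresholds. Of 28 mitosis genes, 0 were called by limma and 14 had an unadjusted p under 0.05 (all lower). Over all 55681 probes, 11996 had such a p in either direction. Of the 28 genes, 27 had a negative change and 14 had all knockout arrays below WT (17% of all genes), with a median of -0.57 log2. The largest values were -1.08 log2 for Kif20a, a kinesin of cytokinesis (adjusted p = 0.0502, limma), and -0.97 for Ube2c, which serves the anaphase-promoting complex (adjusted p = 0.0431, under 2-fold). Of 39 DNA replication genes, 31 had a negative change, 19 had all knockout arrays below WT and 1 was called lower, Prim2, a primase subunit (9.37-fold by its brightest probe, more in TIA1 KO, and -0.71 log2 and not called by the other; median -0.44 log2). The size of these shifts depended on the scaling: with a common median, 25 mitosis and 29 replication genes were called lower, but the median of all probes was itself -0.32 log2 then. Of 32 G1 and p53 axis genes, 3 were called lower, the transcription factor gene E2f2 (3.92-fold, -1.53 log2 in TIA1 KO and -2.41 in TIAR KO), the cell cycle inhibitor locus Cdkn2a (2.58-fold, -3.21 and 0.47 by its brightest probe, -3.87 and -0.04 by the other, which was not called) and the p53 target Perp (4.35-fold, 1.00 and -5.25). The chromatin factor Hmga2 did not pass the test (-0.65 log2), with 0.69 in TIA1 KO and -1.995 in TIAR KO.

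The lists on organelles, metabolism and cell death are read against 3.2% of all genes called higher and 1.89% lower. Of 37 autophagy genes, the protease gene Atg4d (2.11-fold) and the receptor gene Optn (at least 2.36-fold, -2.12 log2 in TIA1 KO and -0.36 in TIAR KO) were called lower (median -0.09 log2). Of 34 lysosome genes, Ctsc, cathepsin C, was at least 16.7-fold lower by its brightest probe and not called by its other one (-0.16 log2), while Man2b1 rose 3.54-fold and Ctsh was called higher with opposite signs in the knockouts (6.12 log2 in TIA1 KO and -1.84 in TIAR KO, where it was not well above background). Of 55 respiratory chain genes, 1 was called lower, Cox6a2 (at least 2.26-fold), and the median was -0.04 log2. Of 40 glutathione and peroxide enzymes, Mgst1 (19.1-fold), Mgst2 (4.79-fold), Gstt1 (4.57-fold) and Gsta4 (2.46-fold) were called higher, and Sod3, the extracellular superoxide dismutase (9.80-fold), and Gstt2 (at least 2.73-fold) lower. Gstt1 changed by 4.13 log2 in TIAR KO and by 0.26 in TIA1 KO, whose arrays overlapped those of WT, and Gsta4 by 0.33 in TIAR KO and 2.27 in TIA1 KO. The other probe of Gstt1 gave -0.23 log2 and was not called, and limma called 0 genes of this list without WT replicate 1. Of 30 BCL2 family, caspase and death receptor genes, Casp4, an inflammatory caspase, rose 6.40-fold, and Bmf was called higher with 2.48 log2 in TIAR KO and -0.42 in TIA1 KO, where it was not well above background. Of 16 AU-rich element binding proteins, Igf2bp3 rose 2.54-fold and Elavl2 was at least 3.06-fold lower by 1 of 2 probes.

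**Figure D5:**
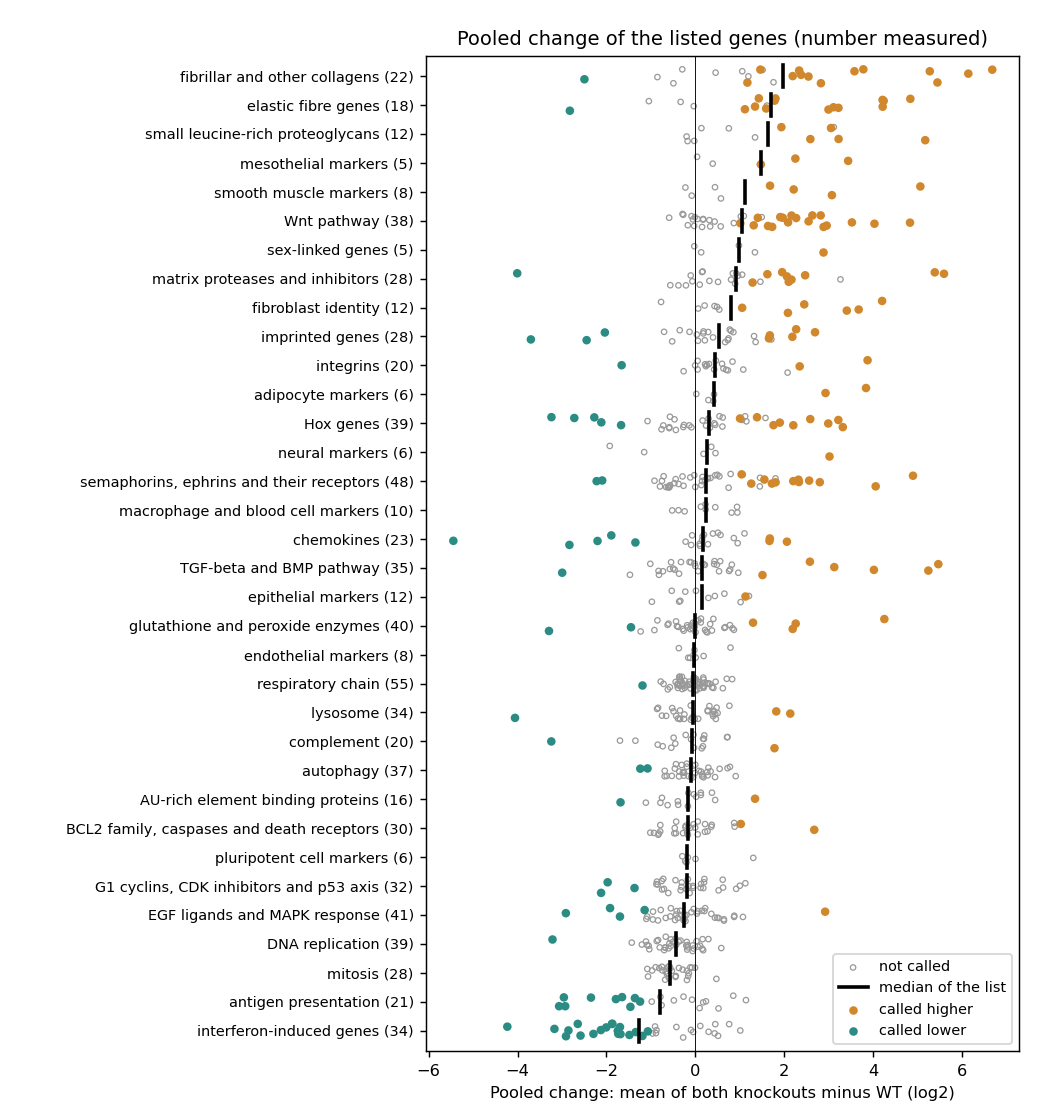
Pooled change from WT in log2 (x axis) of each gene of the 26 gene lists and 8 marker lists, 1 row per list with the number measured, filled where called, and a black bar at the list's median. Collagens and elastic fibre genes have the highest medians (1.98 and 1.70 log2) and interferon-induced genes the lowest (-1.26 log2), while the respiratory chain and autophagy lists lie close to 0.

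Hox genes, which set position along the body axis, went in both directions. Of 39 Hox genes, 9 were called higher and 5 lower, but in 25 the knockouts differed from each other past both thresholds, against 7.35% of all genes. Hoxa7 rose 9.99-fold, and Hoxb2 (5.69 log2 in TIAR KO and 0.75 in TIA1 KO) and Hoxd13 (5.99 log2 in TIA1 KO and -0.01 in TIAR KO) were called higher, each well above background in 1 line alone. Hoxd10, Hoxd8, Hoxa10 and Hoxd9 were at least 9.43-fold, 6.60-fold, 4.798-fold and 4.33-fold lower, with Hoxa10 changed by -0.44 log2 in TIA1 KO and -4.11 in TIAR KO, and Hoxa9 had a pooled call with -3.06 log2 in TIAR KO and -0.28 in TIA1 KO, whose arrays overlapped those of WT. Hoxd8 and Hoxd9 changed by -4.695 and -3.535 log2 in TIA1 KO and by -0.75 and -0.695 in TIAR KO. Of 28 imprinted genes, 5 were called higher, Grb10 (at least 6.48-fold), Peg3 (4.24 log2 in TIAR KO and 0.30 in TIA1 KO), Zrsr1 (4.55-fold), Snrpn (0.10 log2 in TIAR KO and 3.26 in TIA1 KO) and Sgce (3.49 log2 in TIAR KO and -0.17 in TIA1 KO), and 3 lower, Plagl1 (12.996-fold by its brightest probe), Slc38a4 (5.45-fold) and Peg12 (4.10-fold, -3.73 log2 in TIAR KO and -0.34 in TIA1 KO). Of the 4 Plagl1 probes, the 2 dimmer ones gave -0.12 and -0.01 log2. Mest did not pass the test by its brightest probe (0.06 log2), and its dimmest probe gave 1.61 (adjusted p = 0.0137, limma). Leaving out WT replicate 1 left 1 Hox and 1 imprinted gene called in each direction. Of 5 sex-linked genes, Ddx3y was called higher (5.24 log2 in TIAR KO, where alone it was well above background, and 0.53 in TIA1 KO), and its call held when any array was left out, while Eif2s3y and Kdm5d were not well above background on any array, Uty was on 1, and Xist did not pass the test (1.34 log2), with 10.59 on 1 TIA1 KO array and between 6.45 and 7.65 on the other 5 arrays.

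The difference between the knockouts was called for 3269 probes (5.87%): 1795 were higher and 1474 lower in TIAR KO than in TIA1 KO (3.22% and 2.65%). This split depended on the scaling, with 1755 higher and 22491 lower when the arrays were scaled to their 75th percentile and 8938 and 1173 when scaled to a common median, and leaving out 1 array at a time gave 292 to 6120 higher and 444 to 6143 lower. Of the 1726 probes called and separated from WT, 596 (34.5%) also differed between the knockouts, and in 1036 (60%) the knockouts were within 1 log2 of each other. The 6 genes given next had the largest differences, 3 in each direction, among separated called probes well above background on every array of the higher side, which leaves out Sfrp2 and Dcn, each well above background on 1 array of a knockout line. Cyba, a subunit of the NADPH oxidase, gave 15.62 and 15.29 in WT, 14.25 and 13.71 in TIAR KO and 7.50 and 8.59 in TIA1 KO, and thus was below WT on every knockout array, with a change of -1.48 log2 in TIAR KO and -7.41 in TIA1 KO. The uncharacterised transcripts BC023969 and 5830417I10Rik had TIA1 KO changes of -7.69 and -7.12 log2 and TIAR KO changes of -0.77 and -1.45. The reverse was measured for Efemp1, Lrrc32, a surface receptor for latent TGF-beta, and Fam20a, a secreted pseudokinase of enamel, which were higher by 8.65, 7.74 and 7.87 log2 in TIA1 KO and by 1.03, 0.18 and 1.28 in TIAR KO. For Lrrc32 the TIAR KO arrays (7.64 and 7.67) lay above the WT arrays (7.47 and 7.48) by less than the median SE of the pooled change, 0.19 log2.

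Calls were also placed along the genome, in windows of 2 Mb (mm9) with at least 30 probes, of which there were 698. This was done after the values were seen, and neighbouring probes may read the same transcript. The highest share of higher calls was on chromosome 15 between 32 and 34 Mb, with 11 of 43 probes (25.6%), among them Snhg18, Sema5a and Sdc2 and 8 probes for intergenic transcripts, against 2.24% of all probes called higher and 1.5% lower. The next 5 windows by that share, on chromosomes 10, 15, X, 9 and 13, had 12.5% to 15.6% called higher. The highest share of lower calls was on chromosome 8 between 94 and 96 Mb, with 6 of 34 probes (17.6%), among them Crnde and Mmp2. The histocompatibility window on chromosome 17, between 34 and 36 Mb, had 26 of 213 probes called lower (12.2%) and 6 called higher (2.82%), the lower calls including Psmb8, Psmb9, Tap1, Tap2, H2-K1, H2-D1 and H2-Ab1. On chromosome 3, the window between 90 and 92 Mb, next to the Lce genes, had 10 of 65 probes called lower (15.4%), among them S100a8 and S100a13, and the window between 136 and 138 Mb, with Dapp1, had 6 of 44 (13.6%).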

How the data were processed

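Total RNA of 2 samples per MEF line was hybridised to 1-colour Agilent arrays. Spot intensities were deposited as the scanner's Feature Extraction 10.7.3.1 output, and the authors also deposited log2 values, which by the study's methods were scaled, corrected with normexp (offset 50), normalised by loess and quantile and log2 transformed. The deposited log2 values of all 55681 non-control probes were tested with limma 3.58.1 in R 4.3.3 (with the data.table package, version 1.17.8), with a pooled knockout term and a term for the difference between the knockouts. Calls required more than 2-fold change and a p-value below 0.05 after Benjamini-Hochberg adjustment over all probes. All adjusted p-values are from this limma fit, with 3 residual degrees of freedom. With 6 arrays, their number limits the precision.

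The intensities served for the alternatives and for background: a probe was well above background on an array if at least 50% of its spots were. Where WT was not on either array for a rise, or a knockout line for a fall, the fold is given as "at least", from the higher of the lowest value well above background and the probe's own on each array; for a rise with a knockout line not above background, only the changes of each line are given. A gene was read from its brightest probe, and probes named by a chromosome region were left out. Of 28685 probes with a RefSeq accession, 27235 (94.9%) were matched to current symbols, and 2838 of these differed from the file's symbol. Positions are mm9 as in the files.

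The named genes are the targets, the genes the study measured by quantitative PCR, sex-linked genes, the 12 rises and 12 falls with the largest smaller knockout change among separated called probes well above background on the higher side, up to 4 called genes per list by size, and, by the filters of the rises and falls, the 3 genes with the largest called difference between the knockouts in each direction. The members, the 26 gene lists and the 8 marker lists were chosen with earlier results of these data known. The labels do not say whether same-numbered arrays were paired. Deviations of same-numbered arrays correlated at 0.07, 0.03 and -0.05 over all probes, which cannot show that the samples were unpaired. The main fit did not pair them. A few genes that this rule names are not reported here.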

Additional observations from a re-analysis of the deposited data

Results flagged for a closer look

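The genes below were marked because the difference between the knockouts passed its own test (limma adjusted p under 0.05 and more than 2-fold). Each value is the TIAR KO change minus the TIA1 KO change in log2, and both changes were taken against the same WT arrays. Groups of 2 arrays are too small for a check of single arrays that stand apart from their group.

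Higher in TIAR KO MEF were the following genes. The difference was 8.595 for Lpl, 7.79 for Thy1, 7.43 for Upk3b, 6.92 for BC023969, 6.86 for Dcn, 5.93 for Cyba, 5.67 for 5830417I10Rik and 5.65 for Actg2. It was 4.94 for Hoxb2, 4.85 for Fmod, 4.71 for Ddx3y, 4.11 for Prim2, 3.995 for Wt1, 3.94 for Hoxd8 and 3.94 for Peg3. The next values were 3.88 for Gstt1, 3.67 for Cdkn2a, 3.65 for Sgce, 3.51 for Col18a1, 3.44 for Adamts2, 3.27 for Mgst1, 2.99 for Mmp23 and 2.90 for Bmf. These were followed by 2.84 for Hoxd9, 2.77 for Cnn1, 2.75 for Tgfbi, 2.61 for Ccl9, 2.57 for Zrsr1, 2.25 for Lrrn4, 2.15 for Ccl2 and 2.12 for Spry1. Further differences were 2.04 for Ccl7, 1.77 for Ogn, 1.75 for Optn, 1.499 for Pdgfra and 1.49 for Sema4d.

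Higher in TIA1 KO MEF were the following genes. The difference was -8.10 for Sfrp2, -7.96 for Ctsh, -7.62 for Efemp1, -7.55 for Lrrc32, -6.58 for Fam20a, -6.33 for Gap43, -6.25 for Perp and -6.11 for Mfap5. It was -6.04 for Dkk3, -6.00 for Hoxd13, -5.75 for Col6a3, -5.69 for Sema5a, -3.96 for Dusp9, -3.81 for Plagl1, -3.67 for Hoxa10 and -3.60 for Cxcl5. The next values were -3.39 for Peg12, -3.33 for Inhbb, -3.23 for Egr1, -3.17 for Snrpn, -3.04 for Itgb7, -2.96 for Hoxd10, -2.85 for Sfrp1 and -2.79 for Hoxa7. These were followed by -2.78 for Hoxa9, -2.69 for Hmga2, -2.67 for Oas1a, -2.63 for Fbln5, -2.17 for Oasl1, -2.14 for Isg15, -2.09 for Pparg and -2.04 for Itgb3. Further differences were -1.96 for Fbln2, -1.93 for Gsta4, -1.62 for Man2b1, -1.60 for Mgst2, -1.51 for Grb10, -1.50 for Bgn, -1.43 for Col4a2 and -1.38 for Tgfb3. Further differences were -1.20 for Slc38a4 and -1.12 for Itgb5.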

How the results depend on the processing

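Of the 154 named genes, 143 kept their sign under each of the 19 alternatives in which they were tested (150 genes with the filter on dim probes, 153 with the brightest probe of each gene and 154 otherwise). Leaving out 1 array at a time gave 207 to 3808 probes called higher, 66 to 2630 lower, 292 to 6120 higher and 444 to 6143 lower in TIAR KO than in TIA1 KO, 6217 to 9641 with all knockout arrays above WT and 10495 to 15113 below. Of the 2084 calls, 256 were also made without WT replicate 1 and 285 without WT replicate 2. With the replicate block, 840 were called higher and 488 lower, and the difference was called higher for 1114 and lower for 1006. Whether the numbers pair samples is not given. Of the 2084 calls, 1313 were also made with the block, and it turned no call. Fitted with the pooled term alone, 243 were higher and 177 lower, and with a test against a 2-fold change, 364 and 136, with 315 and 435 for the difference. Scaled to the 75th percentile of the processed signal, 422 were lower, 22491 differed downward between the knockouts, and 6745 lay above and 6190 below WT. Scaled to a common median, 8483 were lower, 8938 differed upward, 3215 lay above WT and 14616 below. With the filter on dim probes, 2884 lay above and 5899 below, and with the brightest probe of each gene 5792 lay below. Within slide row 1, 1290 were lower, 11992 lay above and 14172 below, and Cdkn2a (0.47 log2), Ctsh (-1.84), Dkk3 (-0.06), Gap43 (-0.17), Hoxd13 (-0.005) and Tia1 (0.12) turned. Without WT replicate 1, Tia1 (0.14; -1.715 without WT replicate 2), Eif2s3y (0.06), Ereg (0.23), Gapdh (-0.025), Mest (-0.04) and Uty (-0.20) turned. The other turned values were Eif2s3y 1.48 and Gapdh -0.0919 with the 75th percentile, Gapdh -0.78, Mest -0.13 and Uty -0.14 with the common median, Mest -0.0055 without outlier spots, Eif2s3y 0.11 without TIAR KO replicate 1 (-0.155 without replicate 2), Gapdh -0.01 without TIAR KO replicate 2, Eif2s3y 0.05 and Ereg 0.80 without TIA1 KO replicate 1 (Ereg -0.97 without replicate 2), and Gapdh -0.03 and Mest -0.11 without TIA1 KO replicate 2. The cause was not tested. Probes near background limit what can be read of falls.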
